A study of Mus musculus with 31 samples.

Results

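The urea cycle genes are 9 liver genes that turn ammonia nitrogen into urea or feed nitrogen into that pathway, namely Nags, Cps1, Otc, Glud1, Gls2, Slc25a15, Ass1, Asl and Arg1. They were found in the array table by gene symbol, and a gene with several probe sets was taken at its brightest one, by the mean of the 31 arrays. This gave 8 measured members among 22180 genes. The platform annotation used here names no probe set for Gls2, the liver-type glutaminase, which was not analysed here.

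Ammonia is toxic, and the liver is the organ that carries the complete urea cycle, mainly in the hepatocytes around the portal veins. In the mitochondrion, NAGS makes N-acetylglutamate, the obligatory activator of CPS1. CPS1 joins ammonia and bicarbonate to carbamoyl phosphate, and OTC passes the carbamoyl group to ornithine to form citrulline. Glutamate dehydrogenase, encoded by Glud1, releases ammonia from glutamate in the same compartment. The carrier encoded by Slc25a15 exchanges ornithine and citrulline across the inner membrane. In the cytosol ASS1 and ASL make argininosuccinate and then arginine, and ARG1 splits arginine into urea and ornithine. Fasting is known to bring amino acid carbon into gluconeogenesis, which leaves nitrogen to be disposed of.

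Liver RNA of 31 mice was measured, with 1 array per mouse. All mice were males of the C57BL/6 strain, 3 to 4 months old, without a genetic change named in the labels, and livers were taken in the morning. The Fed-Fed-Fast group (n = 8) had 0 earlier fasts and was killed after a fast of 16 h, and its counterpart, Fed-Fed-Fed (n = 8), had free access to food throughout. The Fast-Fast-Fast group (n = 7) had gone through 2 earlier fasts of 16 h over 8 weeks, with regrowth after each, before the final fast of 16 h, and the Fast-Fast-Fed group (n = 8) had the same 2 fasts and was killed fed. The design asks what a 16 h fast does to the liver transcriptome and whether earlier fasts leave a trace in it. Signals are RMA values on a log2 scale, so a difference of 1 is a doubling, and signals of different probe sets do not rank transcripts by abundance.

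The 8 measured hepatocyte markers, albumin among them, lay between the 96.9th and 100.0th percentile of gene means, so the defining markers of the labelled tissue were present. Markers were called at an adjusted p under 0.05 (limma), each fasted group against the fed group of its history. By that rule 6.25% of all genes rose and 6.23% fell with 0 earlier fasts, and 6.06% rose and 5.52% fell with 2. Of 8 Kupffer cell markers, 6 fell in Fed-Fed-Fast livers and 3 in Fast-Fast-Fast livers. The log2 of their summed linear signal ran from 8.00 to 9.15 in Fed-Fed-Fast livers, against 8.51 to 9.76 in Fed-Fed-Fed livers, and from 8.14 to 9.01 in Fast-Fast-Fast livers, against 8.29 to 9.45 in Fast-Fast-Fed livers. Of 8 stellate and fibroblast markers, 1 rose and 3 fell with 0 earlier fasts, and 0 rose and 3 fell with 2. In bulk tissue fewer cells of a type and less RNA per cell cannot be told apart, and the part of these shifts in the urea cycle results was not tested. Among 8 markers of sinusoidal endothelium, the calls were 1 higher and 1 lower with 0 earlier fasts and 1 higher with 2, and of 6 small intestine markers 2 rose at either history, Apoa4 and Fabp2. These lay at the 99.6th and 97.3rd percentile of gene means. The small intestine markers Vil1, Lct, Sis and Alpi lay between the 12.5th and 33.2nd percentile and were not called. Of the 8 hepatocyte markers, 1 rose and 2 fell with 0 earlier fasts, and 1 rose and 1 fell with 2. Of 4 measured exocrine pancreas markers, 1 rose and 1 fell with 0 earlier fasts, and 0 rose and 1 fell with 2. Markers of cholangiocytes, lymphocytes and neutrophils gave 0 calls at either history, as did Slc4a1, the 1 measured red cell marker of 5 listed. The neutrophil and monocyte markers were dim, between the 2.12th and 37.7th percentile of gene means.

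The sequence upstream of the transcription start was at hand for 5 of the 9 members in the RefSeq annotation of GRCm38.p6. The 250 bases before the start are shown for the 2 measured members among these that fell in the final fast and the 2 that rose, because they differ in base composition. CpG dinucleotides are in capitals. The windows are chrX:10252055-10252304 on the plus strand for Otc, chr14:34310477-34310726 on the plus strand for Glud1, chr8:22398278-22398527 on the minus strand for the more downstream of the 2 listed starts of Slc25a15, and chr2:31470020-31470269 on the plus strand for Ass1.
Otc: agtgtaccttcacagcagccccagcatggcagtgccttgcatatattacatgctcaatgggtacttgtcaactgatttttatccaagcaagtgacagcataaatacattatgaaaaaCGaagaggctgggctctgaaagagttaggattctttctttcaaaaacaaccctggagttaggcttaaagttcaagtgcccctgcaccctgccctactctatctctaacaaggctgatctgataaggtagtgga
Glud1: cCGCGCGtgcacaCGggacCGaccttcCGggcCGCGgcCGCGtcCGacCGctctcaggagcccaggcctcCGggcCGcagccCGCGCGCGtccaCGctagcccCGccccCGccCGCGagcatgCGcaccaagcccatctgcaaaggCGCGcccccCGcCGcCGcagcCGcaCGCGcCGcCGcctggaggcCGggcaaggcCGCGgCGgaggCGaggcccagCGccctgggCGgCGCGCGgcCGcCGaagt
Slc25a15: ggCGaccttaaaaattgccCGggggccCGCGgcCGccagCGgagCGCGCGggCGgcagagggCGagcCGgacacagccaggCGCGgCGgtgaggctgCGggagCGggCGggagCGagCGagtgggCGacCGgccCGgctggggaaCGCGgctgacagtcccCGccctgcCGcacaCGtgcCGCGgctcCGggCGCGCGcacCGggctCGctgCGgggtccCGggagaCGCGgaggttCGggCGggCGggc
Ass1: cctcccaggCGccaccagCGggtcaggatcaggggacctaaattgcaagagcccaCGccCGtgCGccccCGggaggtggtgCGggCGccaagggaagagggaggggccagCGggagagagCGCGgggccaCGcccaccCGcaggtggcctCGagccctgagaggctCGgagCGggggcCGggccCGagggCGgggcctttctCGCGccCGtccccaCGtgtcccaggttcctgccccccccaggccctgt

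The Otc window held 1 CpG at a GC content of 43.6%, and 7.87% of the 32851 listed promoters held fewer. The Glud1 window held 46 CpGs at 82.0% GC, more than 99.7% of promoters. Otc and Glud1 both fell in the fast, with promoters at opposite ends of the CpG range. Slc25a15 had 43 CpGs and Ass1 23, and the median promoter had 6. The Nags window (chr11:102145263-102145512) and the second Slc25a15 start (chr8:22398622-22398871) held 11 CpGs each. None of the 6 windows held, on either strand, the CREB site TGACGTCA or its shorter form TGACG, the C/EBP site TTGCNNAA, the glucocorticoid receptor site AGAACA, the FOXO site GTAAACA, the DR1 direct repeat of nuclear receptors or the TATA box TATAAA. Windows of the same length hold these in 1.55, 17.8, 9.56, 16.1, 3.17, 0.0335 and 12.4% of promoters, in that order, with TGACG lying inside TGACGTCA. That result speaks of these letters in these windows alone.

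**Figure D1:**
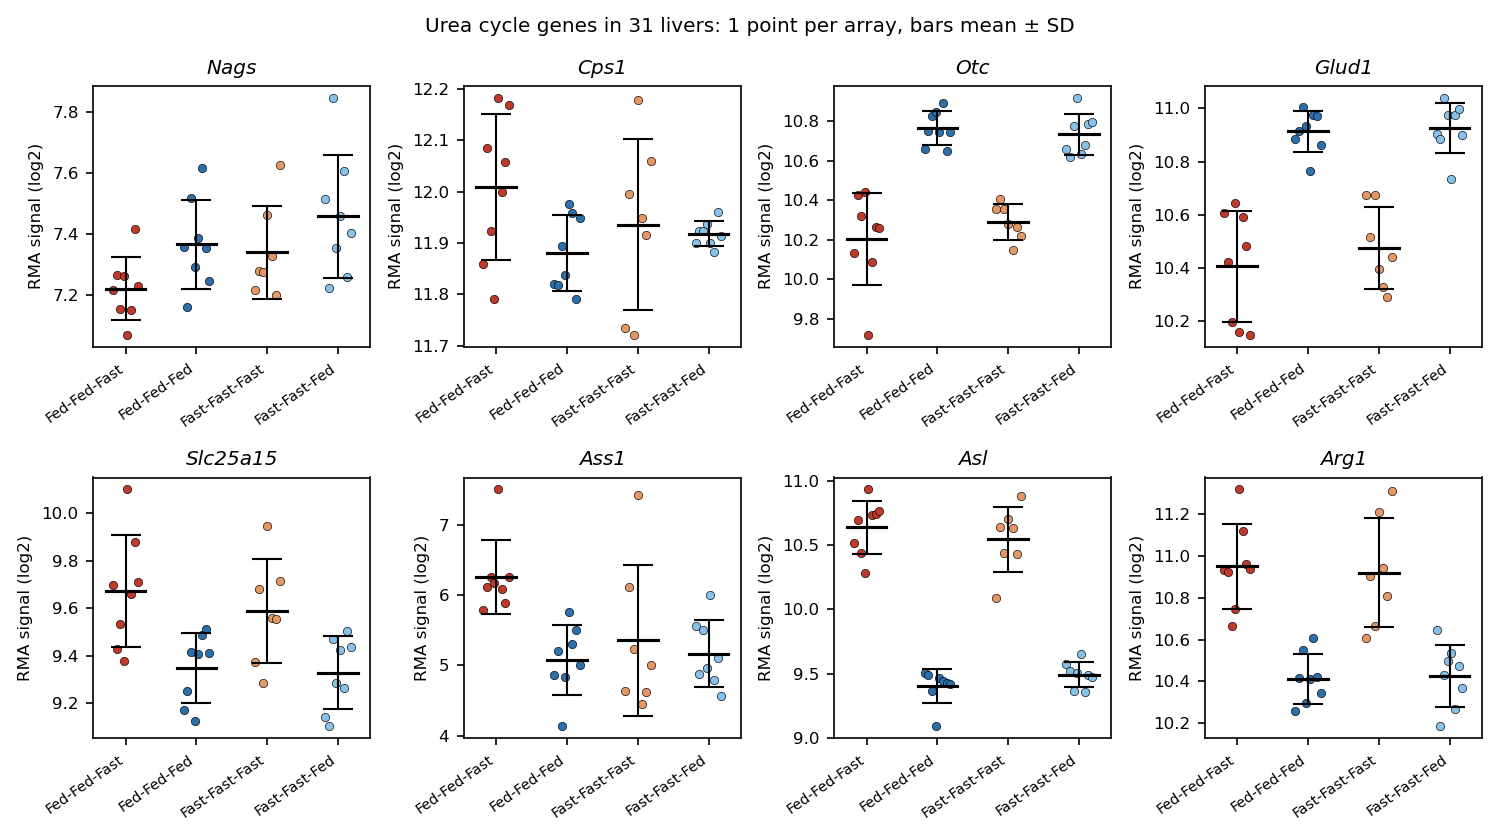
Log2 RMA signal (vertical axis, own range per gene) of the 8 measured urea cycle genes in the 4 groups, 1 point per array, with bars for the mean ± SD. Otc and Glud1 lie lower in fasted than in fed livers without overlap, Asl lies higher without overlap, and Cps1 and Nags overlap between fasted and fed livers.

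In mice with 0 earlier fasts, 4 of the 8 measured members rose in the final fast (Asl, Ass1, Arg1 and Slc25a15) and 2 fell (Otc and Glud1), while Cps1 and Nags did not pass the test. The genes that rose were the 3 cytosolic enzymes and the ornithine carrier, and those that fell encode mitochondrial matrix enzymes. A gene was called at an adjusted p under 0.05 (limma, Benjamini-Hochberg over 22180 genes). By that rule 12.5% of all genes were called, 6.25% as higher and 6.23% as lower. The shares of all genes here and below cover genes of any signal. The 8 members lay between the 77.6th and 99.9th percentile of gene means. The median log2 change of the 8 members was 0.23, against -0.0036 over all genes. In mice with 2 earlier fasts, 2 members rose (Asl and Arg1) and 2 fell (Otc and Glud1), where 11.6% of all genes were called, 6.06% as higher and 5.52% as lower, and the members' median was 0.10. Averaged over both histories, the count was 4 higher and 2 lower, of the same genes as with 0 earlier fasts, where 9.79% of all genes were called higher and 9.36% lower. The sign of the change was the same at both histories in all 8 members, but that of Cps1 with 2 earlier fasts turned to -0.041 when the arrays were quantile normalized again, that of Ass1 with 2 earlier fasts turned without 1 liver, and those of Nags turned with the mean of its probe sets.

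Nags, whose product makes the activator of CPS1, had signals of 7.07, 7.22 and 7.42 (lowest, median, highest) in Fed-Fed-Fast livers, against 7.16, 7.36 and 7.62 in Fed-Fed-Fed livers. It had 7.20, 7.28 and 7.63 in Fast-Fast-Fast livers, against 7.22, 7.43 and 7.85 in Fast-Fast-Fed livers. All 4 ranges overlap. The log2 change was -0.15 (SE 0.081, adjusted p = 0.308, limma) with 0 and -0.12 (SE 0.084, adjusted p = 0.472, limma) with 2 earlier fasts. A second Nags probe set, dimmer at a mean of 5.18, went the other way: it rose by 0.41 (SE 0.13) and 0.59 (SE 0.13), with limma adjusted p of 0.047 and 0.00361 over all probe sets. No direction is therefore given for Nags.

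Cps1 encodes the rate-limiting enzyme of the cycle and its entry step. Its signals were 11.79, 12.03 and 12.18 in Fed-Fed-Fast livers, against 11.79, 11.87 and 11.98 in Fed-Fed-Fed livers. With 2 earlier fasts they were 11.72, 11.95 and 12.18 in Fast-Fast-Fast livers, against 11.88, 11.92 and 11.96 in Fast-Fast-Fed livers. Of the 7 Fast-Fast-Fast livers, 3 lay above and 2 below every Fast-Fast-Fed liver, so that fasted livers stood on both sides of a narrow fed range. The log2 change was 0.13 (95% interval -0.0042 to 0.26, adjusted p = 0.251, limma) with 0 earlier fasts and 0.02 (-0.12 to 0.15, adjusted p = 0.933) with 2. The SD among the fasted livers with 2 earlier fasts was 0.17, against 0.02 among the fed ones. Spread was tested as the mean absolute deviation from the group median, 0.12 and 0.019 for these 2 groups. Over 16 exact permutation tests of that measure, 1 per gene and history, 0 passed after adjustment. The smallest 2-sided p was 0.0134 for this Cps1 contrast (adjusted p = 0.132).

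Otc, which makes citrulline and lies on the X chromosome, had signals of 9.72, 10.26 and 10.44 in Fed-Fed-Fast livers, against 10.65, 10.75 and 10.89 in Fed-Fed-Fed livers. It had 10.15, 10.28 and 10.41 in Fast-Fast-Fast livers, against 10.62, 10.73 and 10.92 in Fast-Fast-Fed livers. Every fasted liver lay below every fed liver of its own history, and in fact of either history. Otc fell by 0.56 on the log2 scale (SE 0.076, a fold of 0.678, adjusted p = 1.03e-06, limma) with 0 earlier fasts. It fell by 0.44 (SE 0.079, a fold of 0.735, adjusted p = 9.52e-05, limma) with 2.

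Glud1 had signals of 10.15, 10.45 and 10.64 in Fed-Fed-Fast livers, against 10.77, 10.92 and 11.01 in Fed-Fed-Fed livers. With 2 earlier fasts it had 10.29, 10.44 and 10.68 in Fast-Fast-Fast livers, against 10.73, 10.94 and 11.04 in Fast-Fast-Fed livers. As for Otc, no fasted liver reached the fed range. Glud1 fell with log2 changes of -0.51 (SE 0.076, a fold of 0.703, adjusted p = 5.79e-06, limma) and -0.45 (SE 0.079, a fold of 0.731, adjusted p = 7.73e-05, limma) with 0 and 2 earlier fasts.

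Slc25a15, the ornithine and citrulline carrier, had 9.38, 9.68 and 10.10 in Fed-Fed-Fast livers, against 9.13, 9.41 and 9.51 in Fed-Fed-Fed livers. It had 9.29, 9.56 and 9.95 in Fast-Fast-Fast livers, against 9.10, 9.35 and 9.50 in Fast-Fast-Fed livers. The ranges overlap: 6 of 8 and 5 of 7 fasted livers lay above all fed livers of their history. It rose by 0.33 (SE 0.096, 1.25-fold, adjusted p = 0.0188, limma) with 0 earlier fasts. With 2, the log2 change of 0.26 (SE 0.099, adjusted p = 0.0923, limma) did not pass. Without replicate 5 of the Fed-Fed-Fast group the contrast with 0 earlier fasts gave 0.26 (adjusted p = 0.0596), and without replicate 3 of the Fast-Fast-Fast group the contrast with 2 earlier fasts gave 0.31 (adjusted p = 0.0406), so single livers set which side of the threshold it fell on.

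Ass1, which joins citrulline and aspartate, had 5.79, 6.15 and 7.50 in Fed-Fed-Fast livers, against 4.14, 5.11 and 5.77 in Fed-Fed-Fed livers. It had 4.45, 5.01 and 7.42 in Fast-Fast-Fast livers, against 4.57, 5.03 and 6.00 in Fast-Fast-Fed livers. With 0 earlier fasts the groups were just apart, while with 2 the medians were close and 2 of 7 fasted livers lay above all fed livers. Ass1 rose by 1.18 (SE 0.31, 2.27-fold, adjusted p = 0.00694, limma) with 0 earlier fasts. The change with 2 was 0.19 (SE 0.32, adjusted p = 0.824, limma). Its sign rested on replicate 4 of the Fast-Fast-Fast group, without which it was -0.16. The mean signal of the Ass1 probe set was at the 77.6th percentile of gene means and those of the other 7 between the 92.5th and 99.9th.

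Asl, which splits argininosuccinate into arginine and fumarate, had 10.28, 10.71 and 10.93 in Fed-Fed-Fast livers, against 9.09, 9.43 and 9.50 in Fed-Fed-Fed livers. It had 10.09, 10.63 and 10.88 in Fast-Fast-Fast livers, against 9.36, 9.50 and 9.65 in Fast-Fast-Fed livers. The fasted and fed ranges lay far apart at both histories. Asl rose by 1.24 (SE 0.091, 2.36-fold, adjusted p = 1.74e-12, limma) with 0 and by 1.05 (SE 0.094, 2.07-fold, adjusted p = 2.12e-10, limma) with 2 earlier fasts. It had the largest change of the 8 members at both histories.

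Arg1, which releases urea, had 10.66, 10.94 and 11.32 in Fed-Fed-Fast livers, against 10.26, 10.42 and 10.61 in Fed-Fed-Fed livers. It had 10.61, 10.90 and 11.31 in Fast-Fast-Fast livers, against 10.19, 10.45 and 10.65 in Fast-Fast-Fed livers. All fasted livers with 0 earlier fasts and 6 of 7 with 2 lay above the fed livers of their history. Arg1 rose by 0.54 (SE 0.094, 1.45-fold, adjusted p = 6.61e-05, limma) and by 0.49 (SE 0.097, 1.41-fold, adjusted p = 0.000392, limma).

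With 0 earlier fasts, 5 members had fasted and fed ranges that did not overlap, 3 higher and 2 lower, as did 4.28% of all genes (2.18% higher and 2.1% lower). With 2 earlier fasts 3 members did, 1 higher and 2 lower, as did 4.37% of all genes (2.29% higher and 2.08% lower).

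**Figure D2:**
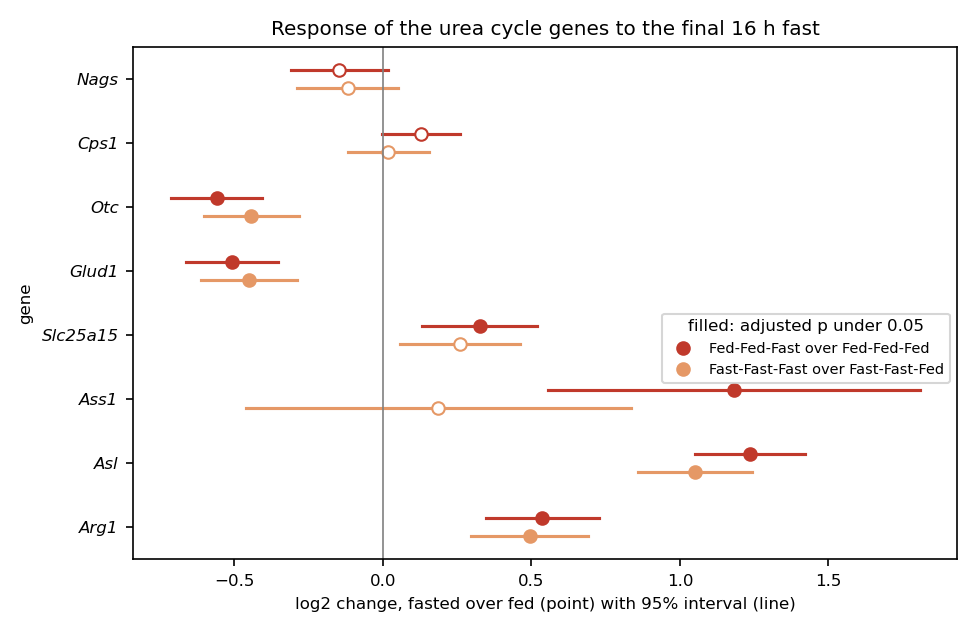
Log2 change in the final fast (horizontal axis) of each urea cycle gene (vertical axis, in pathway order) with its 95% interval, at 0 earlier fasts (Fed-Fed-Fast over Fed-Fed-Fed) and 2 earlier fasts (Fast-Fast-Fast over Fast-Fast-Fed), filled where the adjusted p was under 0.05. Asl stands at 1.24 and 1.05, Otc and Glud1 stand between -0.56 and -0.44, and Ass1 has the widest intervals.

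The unequal response along the pathway was measured within arrays, as the difference between the changes of each pair of members. With 0 earlier fasts, 26 of the 28 pairs changed unequally, and with 2 earlier fasts 19 of 28 did (2-sided exact permutation test over arrays, adjusted over 28 pairs within a history, smallest p the design allows 0.000155 and 0.000311). These counts are a description, since pairs share members and the share of all gene pairs that change unequally was not computed. They include pairs of Nags, read at its brighter probe set. Its second probe set rose by 0.41 and 0.59, and the pairs were not tested with it. Asl exceeded the next cytosolic enzyme, Arg1, by 0.70 (SE 0.068, adjusted p = 0.000242, exact permutation) and 0.56 (SE 0.063, adjusted p = 0.000669, exact permutation). Cps1 exceeded Otc, the step after it, by 0.69 (SE 0.12) and 0.46 (SE 0.088), so the ratio of the 2 matrix enzymes' signals shifted at both histories. Otc and Glud1 differed in their change by -0.05 (SE 0.098, adjusted p = 0.624, exact permutation) and 0.01 (SE 0.053, adjusted p = 0.887, exact permutation). Ass1 and Asl differed by -0.06 with 0 earlier fasts (SE 0.23, adjusted p = 0.812, exact permutation), with a wide error. With 2 earlier fasts their difference was -0.86 (SE 0.41, adjusted p = 0.0657, exact permutation).

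The trace of earlier fasts was the second question. In fed livers (Fast-Fast-Fed over Fed-Fed-Fed), 0 of 8 members and 0.0% of all genes were called, and members' log2 differences ran from -0.03 for Otc to 0.09 for Nags. In fasted livers (Fast-Fast-Fast over Fed-Fed-Fast) and averaged over both states, 0 members and 0.0% of genes were called as well. At an unadjusted p under 0.05, limma gave 1245, 996 and 1185 genes in these comparisons, or 5.61, 4.49 and 5.34% of genes. Averaged over both states, the unadjusted 95% intervals of the 7 members other than Ass1 lay within -0.19 and 0.22. No member had group ranges that lay apart between histories, and among all genes 0.00902% in fed and 0.0361% in fasted livers did.

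Ass1 had the largest difference between histories. In fasted livers it averaged 5.36 ± 1.07 in the Fast-Fast-Fast group (SD, n = 7) and 6.26 ± 0.53 in the Fed-Fed-Fast group (SD, n = 8), and 5 of the 7 livers with 2 earlier fasts lay below all 8 without. The difference of -0.90 (95% interval -1.55 to -0.26) had an unadjusted limma p of 0.00773 and an adjusted p of 1.0, so it did not pass. The difference between its responses at the 2 histories, the interaction, was -0.99 (SE 0.44, unadjusted limma p of 0.0316, adjusted p = 0.999). By that interaction 0 members and 0.0% of all genes were called, with 1023 genes at an unadjusted p under 0.05 (4.61%). For the other 7 members the interaction ran from -0.19 for Asl to 0.12 for Otc. Without replicate 4 of the Fast-Fast-Fast group the Ass1 difference in fasted livers was -1.25 (adjusted p = 0.709) and without replicate 5 of the Fed-Fed-Fast group it was -0.73.

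Beyond the group means, some members' deviations were correlated from liver to liver. Each liver's deviation from its own group mean was correlated between members over all 31 arrays, and 9 of 28 pairs passed (2-sided permutation within groups, 100000 resamples, adjusted over 28 pairs), 7 positive and 2 negative. The smallest absolute r among these 9 was 0.504, and 0.902% of the pairs of all 22180 genes reached it, as did 1.36% of the pairs of the 11090 genes with a mean above the median of all genes. Genes read on 1 array share its preparation and its animal, so these shares are given as a description without a test, and the members were chosen as genes of 1 pathway. Asl and Arg1 had r = 0.75 and rho = 0.64 (permutation p 4e-05, adjusted p = 0.00112, and permutation p 0.00059, adjusted p = 0.00826). Cps1 and Asl had r = 0.73 and rho = 0.62 (permutation, adjusted p = 0.00177 and 0.00834), although Cps1 had not passed the test of the group means. Arg1 and Slc25a15 had r = 0.70 and rho = 0.67 (permutation, adjusted p = 0.00168 and 0.00616). Cps1 had r = 0.69 and rho = 0.60 with Arg1 (permutation, adjusted p = 0.00302 and 0.00834), and r = 0.68 and rho = 0.58 with Slc25a15 (permutation, adjusted p = 0.00189 and 0.00834). These 5 pairs link the entry enzyme, the carrier and the last 2 enzymes of the cycle. Without the 2 arrays farthest from the median of the pair's first gene, these 5 pairs still passed, with r of 0.70, 0.68, 0.64, 0.62 and 0.56 in the order given. They were also the 5 that passed by rank correlation, and 5 of the 6 that passed without replicate 5 of the Fed-Fed-Fast group.

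The other 4 pairs lost their call without the 2 farthest arrays. Asl with Slc25a15 had r = 0.58, Ass1 with Slc25a15 0.50, Cps1 with Glud1 -0.58 and Otc with Asl -0.50 (permutation, adjusted p of 0.0176 to 0.0276), and without those arrays they had 0.48, 0.15, -0.53 and -0.31. Asl with Slc25a15 and Cps1 with Glud1 thus kept most of their correlation (permutation, adjusted p = 0.099 for each). Replicate 5 of the Fed-Fed-Fast group was highest of its 8 livers for Cps1, Ass1, Asl, Arg1 and Slc25a15, and lowest for Otc and Nags. Replicate 4 of that group was highest for Otc and Glud1 and lowest for Cps1, Asl and Slc25a15. These livers stood at opposite ends for Cps1, Asl, Slc25a15 and Otc. In the 15 fasted livers, r was 0.88 for Asl with Arg1 and 0.86 for Cps1 with Asl, against 0.34 and 0.11 in the 16 fed livers, given as a description. The difference between fasted and fed livers in these correlations was not tested.

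**Figure D3:**
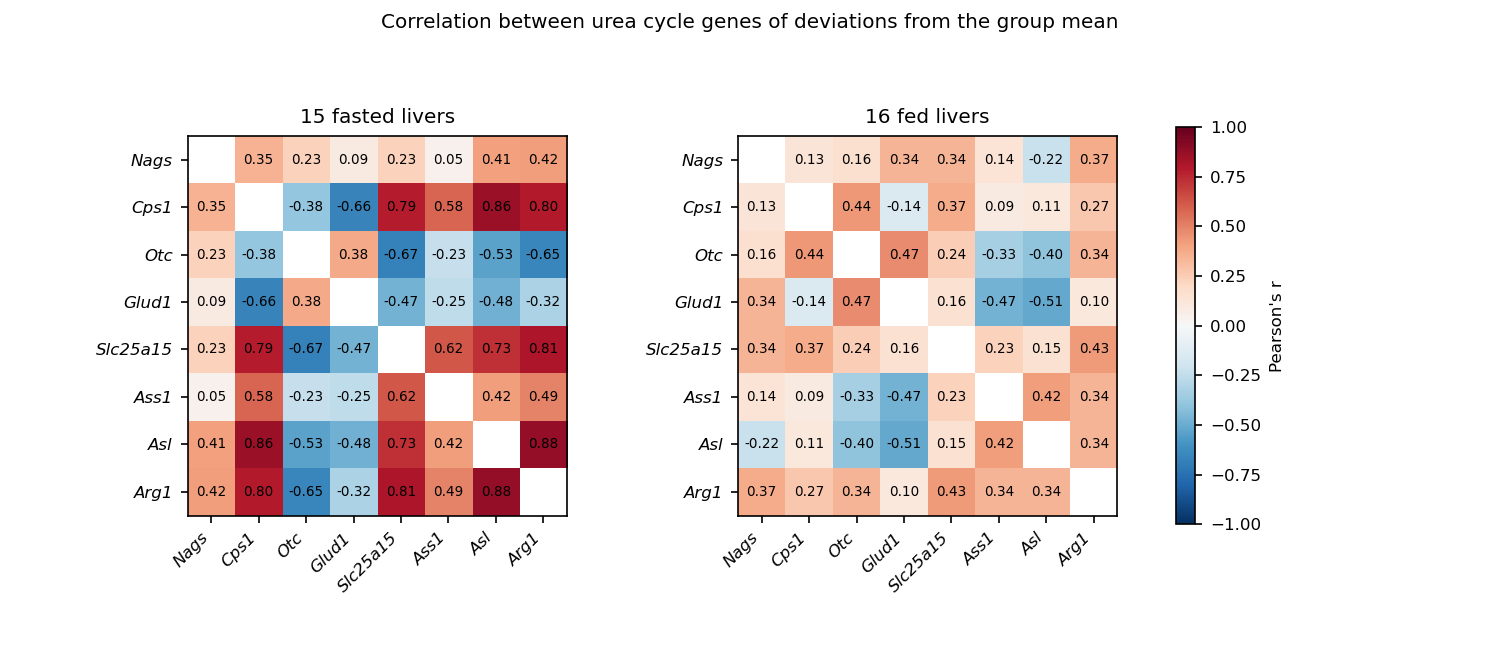
Pearson's r between urea cycle genes (both axes) of each liver's deviation from its group mean, in the 15 fasted livers (left) and the 16 fed livers (right), with red for positive and blue for negative values. In fasted livers Cps1, Asl, Arg1 and Slc25a15 form a block with r of 0.73 to 0.88, and the same cells are paler in fed livers.

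Likeness was read among 10534 genes with a mean above the median of all genes, without the members and predicted or numbered gene models. Among these, the deviations most like the mean of the measured members over 31 arrays were those of Nnmt (r = 0.88), Tat (0.82), Ddit4 (0.77), Acmsd (0.77), Pros1 (0.72) and Nrg4 (0.72). Nnmt methylates nicotinamide, Tat is tyrosine aminotransferase, and Acmsd is an enzyme of tryptophan breakdown. Arrays share preparation and animal, so these r are a description without a test. The mean of the members was taken over unscaled deviations, so Ass1 weighed most in it. Ass1 had group SDs of 0.48 to 1.07, against 0.02 to 0.26 for the other measured members. The gene most like each member was Ctsl, a lysosomal protease, for Cps1 (r = 0.82) and Arg1 (0.79), Tat for Asl (0.78), Pfkfb2 for Slc25a15 (0.82), Frmd4b for Ass1 (0.87), Slc22a28 for Otc (0.86), Rgn, encoding regucalcin, for Glud1 (0.79) and Gapvd1 for Nags (0.65). In the final fast with 0 earlier fasts, Rgn and Slc22a28 fell with log2 changes of -1.09 and -1.99, in the direction of Glud1 and Otc, and Ctsl and Pfkfb2 rose by 0.40 and 0.87, in the direction of Arg1 and Slc25a15. Frmd4b had changes of -0.26 with 0 earlier fasts (adjusted p = 0.289, limma) and -0.42 with 2 (adjusted p = 0.0550, limma), opposite in sign to the rise of Ass1, and Gapvd1 had -0.016 and 0.018. Nnmt rose by 1.30 and Tat by 0.37 in that contrast, while Acmsd fell with a change of -0.59.

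Genes that carry nitrogen to and from the cycle moved in both directions. For this list and those below, the shares of all genes called were 6.25% higher and 6.23% lower with 0 earlier fasts. With 2 earlier fasts they were 6.06% higher and 5.52% lower. Of 17 transport genes, 7 rose and 2 fell with 0 earlier fasts, and 5 rose and 3 fell with 2. The median log2 change of the list was 0.20 and 0.11, against a median of all genes within 0.0036 of 0. Slc25a22, a mitochondrial glutamate carrier, rose by 1.41 (SE 0.14) and 1.14 (SE 0.14), and Slc25a12, a mitochondrial aspartate/glutamate carrier, by 0.52 and 0.49. Slc7a2, a cationic amino acid transporter of the plasma membrane, rose by 0.86 (SE 0.13) and 0.56 (SE 0.13). Aqp8, a channel that passes water and ammonia, fell with changes of -2.81 (SE 0.26) and -2.55 (SE 0.27), the largest change among these genes. Rhbg, an ammonium transporter of pericentral hepatocytes, fell by 0.62 (SE 0.18, adjusted p = 0.0182, limma) with 2 earlier fasts, and its change with 0 was -0.24 (adjusted p = 0.492).

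Of 16 measured genes of 18 listed for aminotransferases and ammonia release, 8 rose and 3 fell with 0 earlier fasts, and 6 rose and 3 fell with 2, with median log2 changes of 0.15 and 0.04. Aass, the first enzyme of lysine breakdown, rose by 1.23 (SE 0.11) and 1.05. Got1, which makes cytosolic aspartate, the second nitrogen donor of the cycle, rose by 1.15 and 1.13. Gpt2, the mitochondrial alanine aminotransferase, rose by 1.08 and 0.98, and Oat, which links ornithine to glutamate, by 0.82 and 0.59. Aldh4a1, of the proline pathway, fell with a change of -0.63 at either history.

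Of 14 measured genes of 17 listed for glutamine synthesis and the ornithine, arginine and polyamine branches, 2 rose and 3 fell at both histories, with medians of -0.06 and -0.09. Gatm and Gamt, the enzymes of creatine synthesis from arginine, fell with changes of -0.69 (SE 0.15) and -1.29 with 0 earlier fasts, and of -0.74 and -1.41 with 2. Cad, which starts pyrimidine synthesis with a cytosolic carbamoyl phosphate, fell with changes of -0.72 and -0.54. Odc1, the entry to polyamines, and Oat rose, Odc1 by 0.63 and 0.46. Of 5 measured paralogs and cofactor genes of 8 listed, among them Arg2, the mitochondrial arginase, 0 were called at either history, with medians of -0.04 and 0.13.

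**Figure D4:**
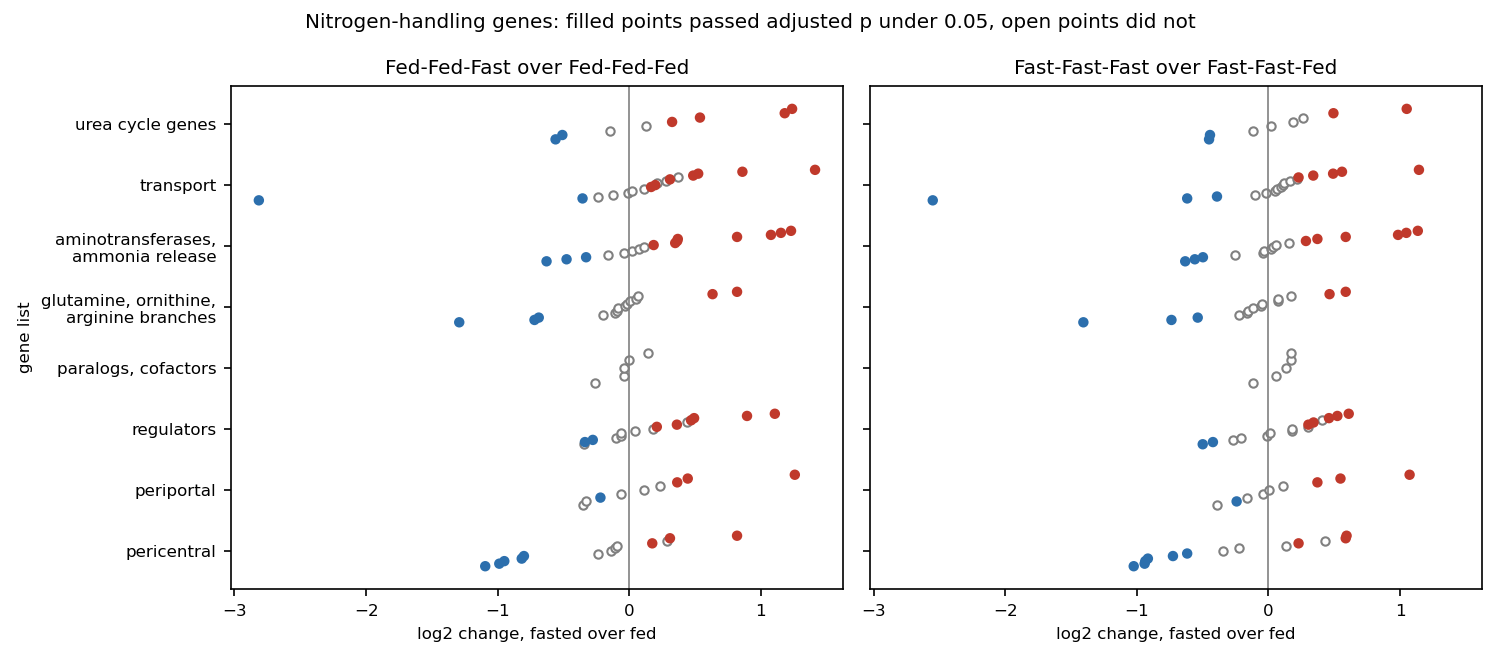
Log2 change in the final fast (horizontal axis) of each gene in 8 lists (vertical axis), at 0 earlier fasts (left, Fed-Fed-Fast over Fed-Fed-Fed) and 2 earlier fasts (right, Fast-Fast-Fast over Fast-Fast-Fed), 1 point per gene, filled red for higher and blue for lower at an adjusted p under 0.05. Aqp8 stands alone at -2.81 and -2.55, and the paralogs and cofactor genes hold open points only.

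Of 15 measured regulators of 16 listed, 6 rose and 2 fell with 0 earlier fasts, and 5 rose and 2 fell with 2, with a median of 0.18 at both. Cebpb, a transcription factor induced by glucagon and glucocorticoids, rose by 1.11 (SE 0.17) and 0.61. Ppargc1a, a coactivator of fasting genes, rose by 0.89 with 0 earlier fasts (adjusted p = 0.00408, limma), and its change with 2 was 0.41 (adjusted p = 0.316). Foxo1 rose by 0.49 and 0.46, Ppara by 0.47 and 0.52, and Hnf4a by 0.36 and 0.30. Cebpa fell with changes of -0.28 and -0.50, and Nr3c1, the glucocorticoid receptor, with changes of -0.34 and -0.42.

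Urea cycle enzymes are known as periportal genes, so other zonated genes were read beside them. Of 9 measured periportal genes of 11 listed, 3 rose and 1 fell at both histories, with medians of 0.11 and 0.0042. Pck1, a gluconeogenic enzyme, rose by 1.26 and 1.07, Hsd17b13 by 0.44 and 0.55 and Gldc by 0.36 and 0.37, while Cyp2f2 fell with changes of -0.22 and -0.24. Of 13 pericentral genes, 3 rose and 5 fell with 0 earlier fasts, and 3 rose and 6 fell with 2, with medians of -0.14 and -0.35. The largest falls were those of Rgn (-1.09 and -1.02), Lect2 (-0.99 and -0.94) and Cyp2c29 (-0.95 and -0.94). Cyp1a2 fell with changes of -0.80 and -0.92. Oat, a pericentral gene also counted in lists above, rose by 0.82 and 0.59. Cyp2e1 rose by 0.17 with 0 earlier fasts (adjusted p = 0.0137, limma). Glul, glutamine synthetase of the last cells before the central vein, had changes of -0.11 and -0.23 and did not pass. Lists of both zones held genes that rose and genes that fell. In the 4 comparisons of history and interaction, 0 genes of these 7 lists were called.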

How the data were processed

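Per the submitters' processing notes the authors made log2 expression values with RMA, which removes background, equalises the arrays' quantiles and condenses probes into probe sets; the sources used here name no version. The deposited log2 values of 41345 probe sets on 31 arrays ran from -0.0139 to 13.1, with array medians of 2.01 to 2.07 and correlations between arrays of 0.965 to 0.982. A single gene symbol belonged to 23521 probe sets in the platform annotation, several to 1814 and none to 16010; 23328 matched RefSeq by Entrez identifier, all with the same symbol. Of 22180 genes, 1082 had several probe sets and were taken at the one with the highest mean.

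Groups came from the sample titles, and each array is 1 mouse. Group means of all 31 arrays were fitted with limma 3.58.1 (R 4.3.3 and the data.table package, version 1.17.8), with 7 contrasts, Benjamini-Hochberg adjustment over 22180 genes and a threshold of 0.05, 2-sided. Other tests were exact or permutation tests over arrays (SciPy 1.17.1, statsmodels 0.14.6 and matplotlib 3.10.9 in Python 3.11.15). The number of arrays limits the precision. No batch is named in the labels. The fit was tested on simulated data with independent normal noise for each gene and array. Correlation between genes was not part of that simulation. Alternatives changed the variance model, the groups fitted, array weights, probe sets, the filter on dim genes, the normalization and single arrays.

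The members and gene lists were chosen with earlier results of these data known, so no count over them is independent support. Named are all members, up to 4 called genes of each list per response by size of change, and the genes most alike by deviation. Outside that rule, some genes were chosen or completed for both histories after their values were seen. These were Slc25a12, Rhbg, Hnf4a, Nr3c1, Cebpa, Odc1, Arg2, Glul, Cyp2e1, Cyp1a2, Aldh4a1 and Ppargc1a. The comparison of responses within arrays, the tests of spread and the CpG counts were also chosen after values were seen. The covariation was planned over all members and covers 28 pairs, since Gls2 was not measured.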

Additional observations from a re-analysis of the deposited data

Results flagged for a closer look

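Of 32 combinations of gene and group checked for a liver far from the rest, 2 stood out, and chance alone marks about 1 in 20. In the Fed-Fed-Fast group, replicate 5 had the highest Ass1 signal, 7.50 on the log2 scale, against 6.26 for the next liver. In the Fed-Fed-Fed group, replicate 4 had the lowest Asl signal, 9.09, against 9.37 for the next.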

How the results depend on the processing

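The count of urea cycle genes called in the final fast (6 with 0 earlier fasts, 4 with 2, 6 averaged) and for history (0) did not move in the 10 or 11 settings of each comparison other than leaving out 1 array, except that the averaged count included Nags as a seventh gene with the mean of probe sets. With 1 array left out it ran from 5 to 6, from 4 to 5, at 6 and at 0. Genes called then ran from 2439 to 2807, from 2277 to 2613 and from 4022 to 4249, and from 0 to 1 for history and the interaction. Of 28 pairs, 9 covaried, against 5 by Spearman's rho, 5 without the 2 farthest arrays and 6 without replicate 5 of the Fed-Fed-Fast group, an alternative chosen after seeing the data. With the mean of its probe sets Nags turned to 0.13, 0.23 and, averaged over both histories, 0.18 (adjusted p = 0.0184), and its history differences to -0.077 in fed livers and -0.025 averaged. No other sign change touched a called value: Cps1 with 2 earlier fasts was -0.041 under repeated quantile normalization, and the averaged history difference of Arg1 was 0.000335 with arrays centred on the median and that of Asl 0.000641 with quantile normalization, 0.000483 with cyclic loess, 0.00723 with centred arrays and 0.00152 with the replicate block. With 1 array left out, values near 0 changed sign: the averaged history difference ran from -0.041 to 0.018 for Arg1, from -0.029 to 0.036 for Asl, from -0.038 to 0.000115 for Cps1 and from -0.0085 to 0.043 for Otc. In fed livers it ran from -0.018 to 0.048 for Arg1, from -0.044 to 0.19 for Ass1, from -0.0098 to 0.039 for Glud1 and from -0.051 to 0.013 for Slc25a15, and in fasted livers from -0.095 to 0.023 for Arg1. The interaction ran from -0.11 to 0.0094 for Arg1 and from -0.019 to 0.084 for Nags, and the response with 2 earlier fasts from -0.16 to 0.34 for Ass1 and from -0.022 to 0.054 for Cps1. The cause was not tested. Same-numbered livers of different groups correlated between -0.12 and 0.19 in their deviations (median 0.046 over 45 pairs). Differently numbered livers correlated between -0.28 and 0.23 (median -0.0037 over 315 pairs). The median of same-numbered livers was the higher one in each pair of groups. Whether the numbers stand for a shared factor was not tested. The replicate block gave 2812, 2584 and 4301 genes called and the same member counts. Ass1, the dimmest of the 8 probe sets, had the widest interval, and no detection calls were used here.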
